A study of Mus musculus with 6 samples.

Results

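The 10 genes described here belong to the fibroblast growth factor (FGF) and ERK kinase pathway and were followed on 6 Affymetrix arrays of mouse embryonic stem (ES) cells. They are the ligand gene Fgf4, the receptor gene Fgfr1, the phosphatase genes Dusp4, Dusp6 and Dusp9, the Sprouty genes Spry2 and Spry4, and the transcription factor genes Egr1, Etv4 and Etv5. They were chosen by name, as the probe sets annotated with 1 of these 10 symbols and no other. All 10 genes were found, in 11 of the 35556 probe sets (Etv5 has 2), and 19938 genes in all have such a probe set of their own. The cells are the line A3-1, grown in medium with 20% fetal bovine serum, non-essential amino acids and the self-renewal cytokine LIF. One group of 2 arrays had a small interfering RNA (siRNA) against Lin28a for 48 h (siLin28a), another group of 2 had an siRNA against green fluorescent protein for 48 h (siGFP, labelled as the control siRNA), and the last group of 2 was untreated. The siLin28a and siGFP groups therefore share treatment with an siRNA, and the labels name 1 siRNA for each. Separate cultures are not stated for the paired arrays of a group, so a p-value here reflects array-to-array spread that may be purely technical, and the number of arrays limits the precision. In RNA from whole cultures, fewer cells of a type and less RNA per cell cannot be told apart.

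Mouse ES cells secrete FGF4, which binds FGF receptors on the same and neighbouring cells and activates RAS, RAF, MEK and ERK in turn. ERK signalling is known for moving ES cells out of the naive state and towards lineage commitment, and LIF acts against that exit. Active ERK induces immediate early and ETS-family transcription factors, and it also induces its own inhibitors: dual-specificity phosphatases that take the phosphates off ERK, and Sprouty proteins that dampen signalling between the receptor and RAF. The messenger RNA of these feedback genes is widely read as a trace of recent ERK activity, although ERK phosphorylation itself was not measured here.

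The siRNA sets the siLin28a group apart from the other groups, so its strands are shown as the labels give them, 5′ to 3′ and without the 2 deoxythymidines that end each strand. Both strands have 19 bases and are fully complementary to each other. Lin28a, whose protein binds let-7 precursors and keeps them from maturing, lies on mouse chromosome 4 at chr4:134003330-134019196 (GRCm38.p6, from RefSeq).
Lin28a siRNA, strand listed first: gcagaagcgaagauccaaa
Lin28a siRNA, strand listed second: uuuggaucuucgcuucugc

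Values are the authors' log2 expression values, so a difference of 1 is a doubling, and they were deposited in steps of 0.1. The targeted transcript checked the labels. Lin28a was at 7.4 and 7.4 in siLin28a arrays, at 9.1 and 9.4 in siGFP arrays, and at 9.1 and 9.4 in untreated arrays. Its log2 difference was −1.85 against siGFP (standard error, SE, 0.16), a 3.60-fold lower level. Even so its adjusted p was 0.512 by limma and did not pass the threshold, and it was 0.0441 with cyclic loess and 0.0244 with a robust prior. Array medians lay between 5.2 and 5.3, and any pair of arrays correlated at a Pearson r of 0.991 to 0.995 over the 23410 probe sets with a gene name. Upper quartiles were 7 and 7.1 in siLin28a arrays and 7.2 in siGFP and untreated arrays, so bright values lay slightly lower in siLin28a arrays. The part of this in the differences below was not tested apart from the alternative normalizations.

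Across the comparison of siLin28a with siGFP, which asks what differs when Lin28a is reduced and siRNA treatment is shared, the 10 genes had small differences. Over the 11 probe sets 4 values were higher, 6 were lower and 1 was equal, between −0.35 and 0.40 on the log2 scale, with a median of −0.05. The median over all 23410 probe sets was 0. The sign of the members' median is not settled, since it was 0.035 with another round of quantile normalization and 0.026 with cyclic loess. Of the 11 probe sets 0 passed an adjusted p of 0.05 in limma's test, as did 0 of all 23410 (0%). At an unadjusted p under 0.05 there were 0 of the 11 and 949 of all probe sets (4.05%) by limma, and least squares without a shared prior also passed 0 probe sets after adjustment. The arrays of the groups did not overlap in 2 of the 11, against 20.8% of all probe sets. These were Egr1, which was higher, as were 9.03% of all, and a probe set of Etv5, which was lower, as were 11.8% of all. Differences of at least 0.3 in size were found in 2 of the 11 (Egr1 and Dusp9), against 13.1% of all, and of at least 0.5 in 0 of the 11, against 2.19% of all.

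**Figure D1:**
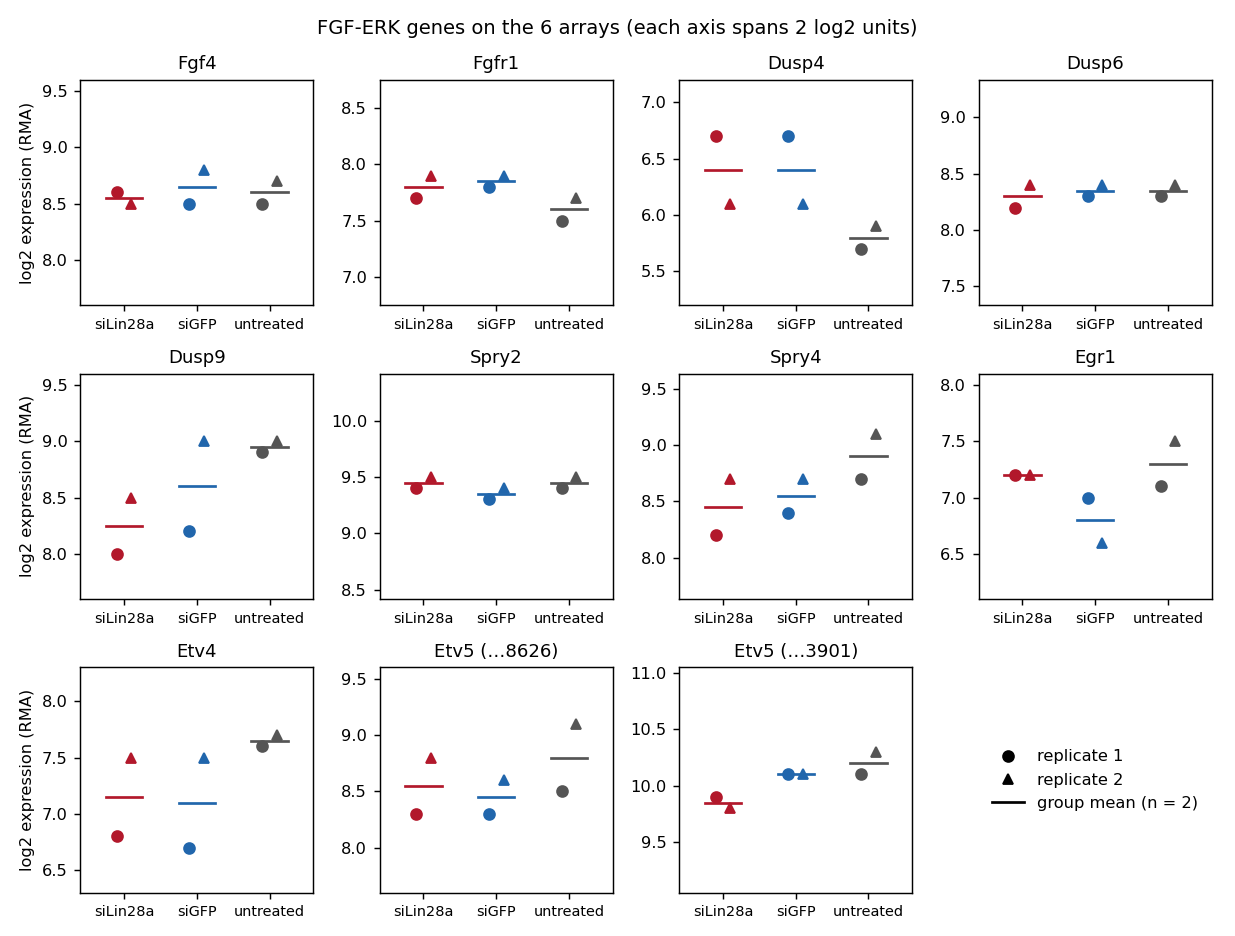
Log2 expression of the 11 probe sets of the 10 genes on each array, with siLin28a, siGFP and untreated arrays from left to right. Circles are replicate 1, triangles replicate 2, and bars the mean of the 2 arrays of a group. Every vertical axis spans 2 log2 units but has its own position, so levels of different genes are not to be compared. Dusp6 and Spry2 stay within 0.2 across all arrays, while Dusp4, Dusp9 and Etv4 have replicate 1 and replicate 2 of both siRNA groups at least 0.5 apart.

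The ligand and its main receptor in ES cells had nearly level values. Fgf4 (chr7:144861386-144865245, GRCm38.p6, as for all positions here) was at 8.6 and 8.5 in siLin28a arrays, at 8.5 and 8.8 in siGFP arrays, and at 8.5 and 8.7 in untreated arrays. These 3 groups overlapped. Its log2 difference was −0.10 for siLin28a against siGFP (SE 0.15, 95% interval −0.47 to 0.27, adjusted p 0.953 by limma), and the interval reaches from a 0.47 lower to a 0.27 higher log2 value. Against untreated cells it was −0.05 in siLin28a and 0.05 in siGFP arrays.

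Fgfr1 (chr8:25518759-25575718), the receptor tyrosine kinase that binds FGF4, was at 7.7 and 7.9 in siLin28a arrays, at 7.8 and 7.9 in siGFP arrays, and at 7.5 and 7.7 in untreated arrays. The siGFP arrays lay above both untreated arrays, and the siLin28a arrays touched the higher untreated one. The log2 difference was −0.05 for siLin28a against siGFP (SE 0.14, interval −0.39 to 0.29), 0.20 for siLin28a against untreated and 0.25 for siGFP against untreated. None of these passed the threshold, with adjusted p of 0.953, 0.855 and 0.961 by limma.

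The ERK phosphatases did not follow a common course. DUSP6 is the cytoplasmic phosphatase that is specific for ERK and is a classical feedback target of FGF signalling. Dusp6 (chr10:99263231-99267489) was at 8.2 and 8.4 in siLin28a arrays, at 8.3 and 8.4 in siGFP arrays, and at 8.3 and 8.4 in untreated arrays. Its group means spanned 0.05, the least of the 11 probe sets. The log2 difference was −0.05 for siLin28a against siGFP (SE 0.13, interval −0.36 to 0.26) and 0.00 for siGFP against untreated (interval −0.31 to 0.31). These intervals rest on array-to-array spread that may be purely technical, so they do not bound a difference between cultures.

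Dusp9, on the X chromosome (chrX:73639389-73643514), encodes a cytoplasmic ERK phosphatase of ES cells and placenta. It was at 8.0 and 8.5 in siLin28a arrays, at 8.2 and 9.0 in siGFP arrays, and at 8.9 and 9.0 in untreated arrays. The siLin28a arrays lay below both untreated arrays, while siGFP replicate 2 reached the untreated level and siGFP replicate 1 did not. The log2 difference between siLin28a and untreated, −0.70 (SE 0.29, interval −1.41 to 0.0058, adjusted p 0.776 by limma), was the widest of any of the 10 genes in any comparison. Against siGFP it was −0.35 (SE 0.29, adjusted p 0.953 by limma). This value moved with the arrays used, to 0.05 without siGFP replicate 2 and to −0.75 without siGFP replicate 1. At the same replicate number the siLin28a array was the lower one, at 8.0 beside 8.2 and at 8.5 beside 9.0. The difference of siGFP from untreated was also −0.35, and 0.05 without siGFP replicate 1.

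Dusp4 (chr8:34807610-34819894) encodes a nuclear phosphatase that acts on ERK and related kinases. It was at 6.7 and 6.1 in siLin28a arrays, at 6.7 and 6.1 in siGFP arrays, and at 5.7 and 5.9 in untreated arrays. All 4 siRNA arrays were above both untreated arrays, and the siLin28a and siGFP arrays had the same 2 values. The log2 difference was 0.00 for siLin28a against siGFP (SE 0.27, interval −0.66 to 0.66), and 0.60 for either siRNA group against untreated (SE 0.27, interval −0.06 to 1.26, 1.52-fold). The adjusted p was 0.776 for siLin28a and 0.961 for siGFP against untreated by limma. Without replicate 1 of the siRNA group the difference from untreated was 0.30, and without replicate 2 it was 0.90.

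Of the Sprouty genes, Spry2 held level and Spry4 was lower in the siRNA arrays without a clean separation. SPRY2 and SPRY4 are membrane-associated inhibitors of receptor tyrosine kinase signalling that are induced by ERK. Spry2 (chr14:105891947-105896819) was at 9.4 and 9.5 in siLin28a arrays, at 9.3 and 9.4 in siGFP arrays, and at 9.4 and 9.5 in untreated arrays. Its differences were 0.10 for siLin28a against siGFP (SE 0.12, interval −0.19 to 0.39), 0.00 for siLin28a against untreated and −0.10 for siGFP against untreated. Spry4 was at 8.2 and 8.7 in siLin28a arrays, at 8.4 and 8.7 in siGFP arrays, and at 8.7 and 9.1 in untreated arrays. The highest siRNA value equalled the lowest untreated value in both siRNA groups. The Spry4 difference was −0.10 for siLin28a against siGFP (SE 0.23), −0.45 for siLin28a against untreated (adjusted p 0.783 by limma) and −0.35 for siGFP against untreated (adjusted p 0.961).

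The ETS factors ETV4 and ETV5 and the Sprouty feedback genes are linked in the literature through ERK, so the promoters were searched for the letters that ETS factors prefer. RefSeq promoter windows of 300 bases, 250 before to 50 after the start site, were given for 4 of the 10 genes (Fgf4, Dusp6, Spry2 and Etv5, which has 2), 5 windows in all. The ETS core CCGGAA was found on either strand in 1 of the 5, that of Spry2, against 14.9% of all 32851 promoter windows. The match lies 33 bases downstream of the start site on the gene's own strand, and the last 30 bases of the window are shown because they hold it, with the core in capitals.
Spry2, minus strand of chr14:105896770-105896799 (GRCm38.p6): gaggtcatctatcCCGGAAtccgggagggt
The longer ETS motif CCGGAAGT (3.89% of all windows), the EGR1 motifs GCGGGGGCG (2.91%) and GCGTGGGCG (0.612%), the cyclic AMP response element TGACGTCA (1.79%) and the octamer ATGCAAAT (1.74%) were not in the letters of these 5 windows. The longer ETS motif contains the core. A match is a description of the sequence and not of a bound site.

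The transcription factor genes differed from one another. EGR1 is a zinc-finger factor that ERK induces within minutes. Egr1 was at 7.2 and 7.2 in siLin28a arrays, at 7.0 and 6.6 in siGFP arrays, and at 7.1 and 7.5 in untreated arrays. The siGFP arrays were below all 4 others. The log2 difference was 0.40 for siLin28a against siGFP (SE 0.19, interval −0.07 to 0.87, adjusted p 0.953 by limma) and −0.50 for siGFP against untreated (SE 0.19, interval −0.97 to −0.03, unadjusted p 0.0407, adjusted p 0.961). It was −0.10 for siLin28a against untreated. The value against siGFP was 0.20 without siGFP replicate 2 and 0.60 without siGFP replicate 1.

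ETV4 is an ETS factor of the PEA3 group and a transcriptional target of FGF signalling. Etv4 (chr11:101769747-101785310) was at 6.8 and 7.5 in siLin28a arrays, at 6.7 and 7.5 in siGFP arrays, and at 7.6 and 7.7 in untreated arrays. All 4 siRNA arrays were below both untreated arrays, by 0.1 at the nearest for replicate 2 and by much more for replicate 1. The log2 difference was 0.05 for siLin28a against siGFP (SE 0.32, interval −0.73 to 0.83, adjusted p 1 by limma), −0.50 for siLin28a against untreated (adjusted p 0.830) and −0.55 for siGFP against untreated (adjusted p 0.961). The value against siGFP turned to −0.35 without siGFP replicate 1 and was 0.45 without siGFP replicate 2. At the same replicate number, siLin28a and siGFP lay close together, at 6.8 beside 6.7 and at 7.5 beside 7.5. The values against untreated shrank to −0.15 in both siRNA groups without their replicate 1.

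ETV5 belongs to the same ETS group, and its gene (chr16:22381313-22439570) has 2 probe sets annotated with the same accessions. That position was matched by Entrez number and was not read from the probes. Probe positions were not given in the sources used here, so whether both probe sets measure this gene was not tested. The brighter one, 10363901, alone stands for Etv5 in the pathway lists, so the same limit holds there. Probe set 10438626 was at 8.3 and 8.8 in siLin28a arrays, at 8.3 and 8.6 in siGFP arrays, and at 8.5 and 9.1 in untreated arrays, and the groups overlapped. Probe set 10363901 was at 9.9 and 9.8 in siLin28a arrays, at 10.1 and 10.1 in siGFP arrays, and at 10.1 and 10.3 in untreated arrays, with the siLin28a arrays below all others. The probe sets disagreed in sign for siLin28a against siGFP, at 0.10 (SE 0.26) and −0.25 (SE 0.13, adjusted p 0.953 by limma). Both were lower for siLin28a against untreated, at −0.25 for 10438626 and −0.35 for 10363901, with an unadjusted p of 0.0308 and an adjusted p of 0.705 for 10363901.

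**Figure D2:**
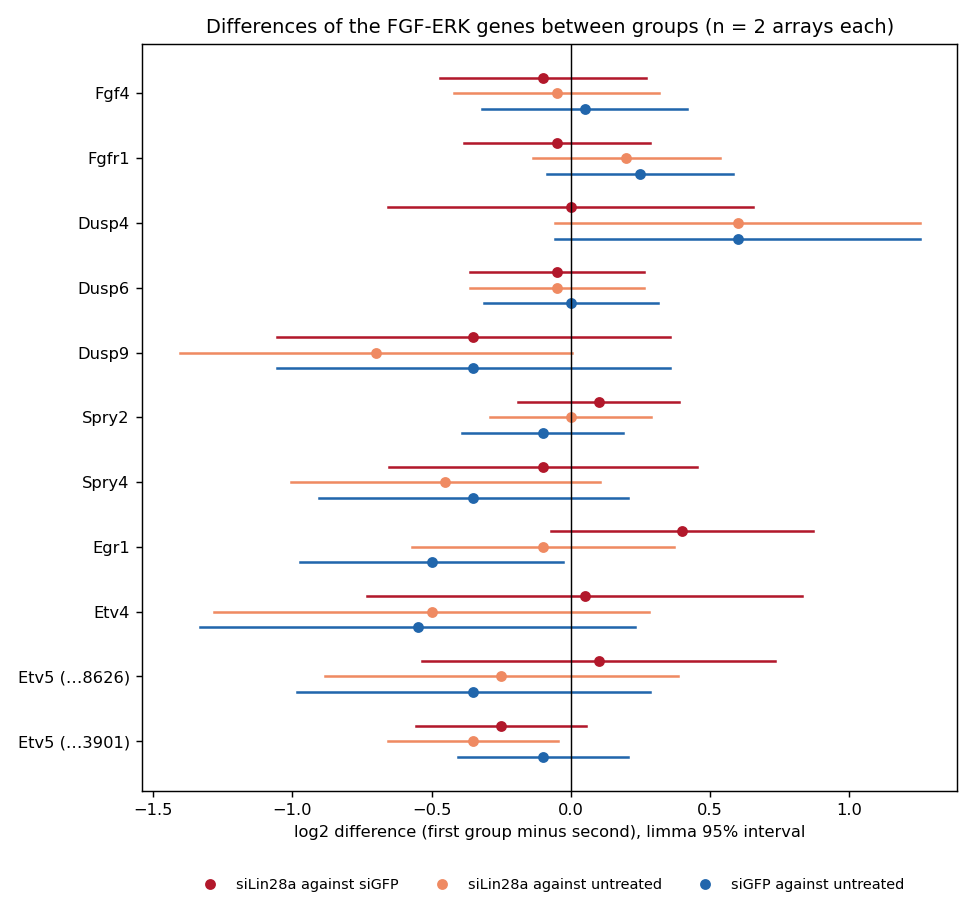
Log2 differences of the 11 probe sets with limma's 95% intervals, in red for siLin28a against siGFP, orange for siLin28a against untreated and blue for siGFP against untreated (2 arrays in each group). The intervals of siLin28a against siGFP all include 0. Those of Etv5 probe set 10363901 (siLin28a against untreated) and Egr1 (siGFP against untreated) end just short of 0, before any adjustment over all probe sets.

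Set against untreated cells, the same genes spread further. For siLin28a 2 of the 11 probe sets were higher, 8 were lower and 1 was equal, with a median of −0.10 beside 0 over all probe sets. With 1 probe set for each gene the median was −0.075, and it turned to 0.0042 with another round of quantile normalization and to 0.0031 with cyclic loess. For siGFP 3 were higher, 7 were lower and 1 was equal, also with a median of −0.10 beside 0. Of the 11 probe sets 0 passed the adjusted threshold in either comparison, as did 0 of all (0% and 0%), and 1 of 11 had an unadjusted p under 0.05 in each, against 6.44% and 3.52% of all probe sets (1508 and 825). Least squares without a shared prior also passed 0.

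The arrays did not overlap with the untreated ones in 4 of the 11 probe sets for siLin28a, against 23.7% of all, and in 4 of the 11 for siGFP, against 17.7% of all. The 4 for siLin28a were Dusp4, which was higher, as were 11.1% of all, and Dusp9, Etv4 and Etv5 probe set 10363901, which were lower, as were 12.6% of all. The 4 for siGFP were Dusp4 and Fgfr1, which were higher, as were 9.22% of all, and Etv4 and Egr1, which were lower, as were 8.46% of all. Differences of at least 0.3 in size were found in 5 of the 11 for siLin28a, against 16.9% of all, and in 6 of the 11 for siGFP, against 12% of all. Differences of at least 0.5 were found in 3 of the 11 in each, against 4.13% for siLin28a and 2.05% for siGFP. Both comparisons use the same untreated arrays, so the likeness of their values is not independent. Counted over the 4 siRNA arrays at once, 1 probe set (Dusp4) was above both untreated arrays, as were 4.11% of all, and 1 (Etv4) was below both, as were 3.58% of all.

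For Etv4, Dusp9 and Dusp4, replicate arrays within an siRNA group differed by more than the siLin28a and siGFP means did. That spread was of the same order as the differences of the siRNA groups from untreated. The replicate spread was examined after the values were seen. Etv4 was 0.7 lower in siLin28a replicate 1 than in siLin28a replicate 2, and 0.8 lower in siGFP replicate 1 than in siGFP replicate 2. Dusp9 was 0.5 and 0.8 lower and Dusp4 was 0.6 and 0.6 higher in the same sense. The untreated arrays were only 0.1, 0.1 and 0.2 apart for these genes. In 7 of the 11 probe sets both siRNA replicate 1 arrays lay on one side of both siRNA replicate 2 arrays, against 31.8% of all probe sets. In 3 of the 11 (Etv4, Dusp9 and Dusp4) the means of those pairs were also at least 0.5 apart, against 3.77% of all. The labels do not say what the replicate numbers stand for, and the part of culture, siRNA treatment or array handling in this was not tested.

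**Figure D3:**
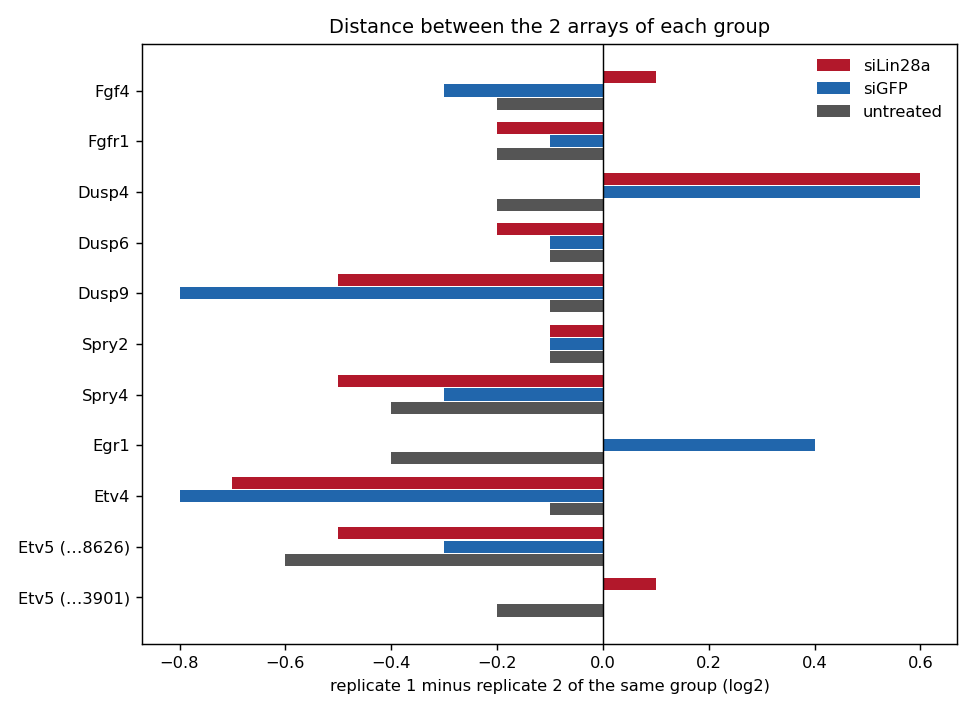
Value on replicate 1 minus value on replicate 2 of the same group (log2) for each of the 11 probe sets, with bars for siLin28a, siGFP and untreated from top to bottom and starting at 0. A missing bar is a difference of 0. Etv4, Dusp9 and Dusp4 have long bars in both siRNA groups, pointing the same way, and short bars in the untreated group.

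By the rule for likeness, other probe sets were compared with the 2 genes of widest range, Dusp9 and Dusp4, over the 6 arrays after each probe set was centred on its own mean. The measure is the root mean square difference on the log2 scale, over 835 candidate probe sets. Nearest to Dusp9 were Mylpf, a muscle myosin light chain gene (0.058), Eras, which encodes an ES cell RAS protein (0.069), and Pdcl3 (0.076). Eras lies on the X chromosome as Dusp9 does, while Mylpf lies on chromosome 7 and Pdcl3 on chromosome 1. Eras was at 6.1 and 6.7 in siLin28a arrays, at 6.3 and 7.0 in siGFP arrays, and at 7.0 and 7.2 in untreated arrays. Nearest to Dusp4 were Nckap1l (0.069), G0s2 (0.134) and App, the amyloid precursor gene (0.134). The 6 arrays have few levels between them, so such matches are a description only.

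The rest of the pathway was read from 8 lists of 120 genes, of which 111 had a probe set of their own, with 1 probe set for each gene. For siLin28a against siGFP 49 of the 111 were higher, 53 were lower and 9 were equal, with a median of 0, as over all probe sets. Of these 111 genes 0 passed the adjusted threshold by limma, and 4 had an unadjusted p under 0.05, beside 4.05% of all probe sets. The arrays did not overlap in 25 of the 111, a share of 22.5%, beside 20.8% of all probe sets. In the lists that these 10 genes belong to, the medians were 0.05 for the 22 FGF family genes (the list FGF ligands) and 0.05 for the 10 receptors and co-receptors. They were −0.10 for the 10 dual-specificity phosphatase genes (the list ERK phosphatases) and 0.05 for the 8 Sprouty, Spred and Sef inhibitors. The 27 immediate early and ETS targets had a median of 0.00. Activity on ERK or at a receptor was not tested for each gene of these lists.

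Among the ligands other than Fgf4 with a group mean of at least 6, the 2 with the widest siLin28a to siGFP difference were Fgf17 and Fgf18, which encode closely related secreted FGFs. Fgf17 was at 7.5 and 7.7 in siLin28a arrays, at 7.6 and 8.0 in siGFP arrays, and at 8.2 and 8.3 in untreated arrays. All 4 siRNA arrays were below the untreated ones. The differences were −0.20 (SE 0.17) for siLin28a against siGFP, −0.65 (adjusted p 0.637 by limma) for siLin28a against untreated and −0.45 for siGFP against untreated. Fgf18 had 0.20 (SE 0.25) for siLin28a against siGFP. The decoy-like receptor gene Fgfrl1, which lacks a kinase domain, was the only receptor gene named by the rule and had 0.15 (SE 0.12).

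Cell-surface heparan sulphate presents FGFs to their receptors, and 5 of its 14 measured genes were higher and 9 lower for siLin28a against siGFP. Of all 23410 probe sets 8969 were higher and 11605 lower. Sulf1, which removes sulphate from those chains, was at 8.4 and 8.6 in siLin28a arrays, at 8.2 and 8.1 in siGFP arrays, and at 8.2 and 8.2 in untreated arrays. Sdc4, the core protein syndecan 4, was at 7.9 and 8.0 in siLin28a arrays, at 7.5 and 7.8 in siGFP arrays, and at 7.5 and 7.4 in untreated arrays. In both genes the siLin28a arrays were above all other arrays, and 9.03% of all probe sets had them above both siGFP arrays. Their differences from siGFP were 0.35 (SE 0.13) and 0.30 (SE 0.14), each with an adjusted p of 0.953 by limma.

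Between receptor and ERK the widest values were among the RAS regulators. The 12 measured adaptors and RAS regulators had a median of −0.025, with Rasa1, a RAS GTPase-activating protein gene, at −0.40 (SE 0.37) and the RAS exchange factor gene Sos2 at 0.30 (SE 0.17). The 8 of 15 kinase-core genes with a probe set of their own lay between −0.15 and 0.15, with Map2k1, which encodes MEK1, at −0.15 (SE 0.18) and Braf at 0.15 (SE 0.15). Among other phosphatase and inhibitor genes Dusp1 and Dusp16 had −0.30 each (SE 0.16 and 0.12), Spred1 had −0.15 (SE 0.33) and Il17rd, the Sef gene, had 0.10 (SE 0.15). Among ERK-responsive genes Ets2 had −0.45 (SE 0.19) and Myc −0.40 (SE 0.50). None of them passed the adjusted threshold.

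**Figure D4:**
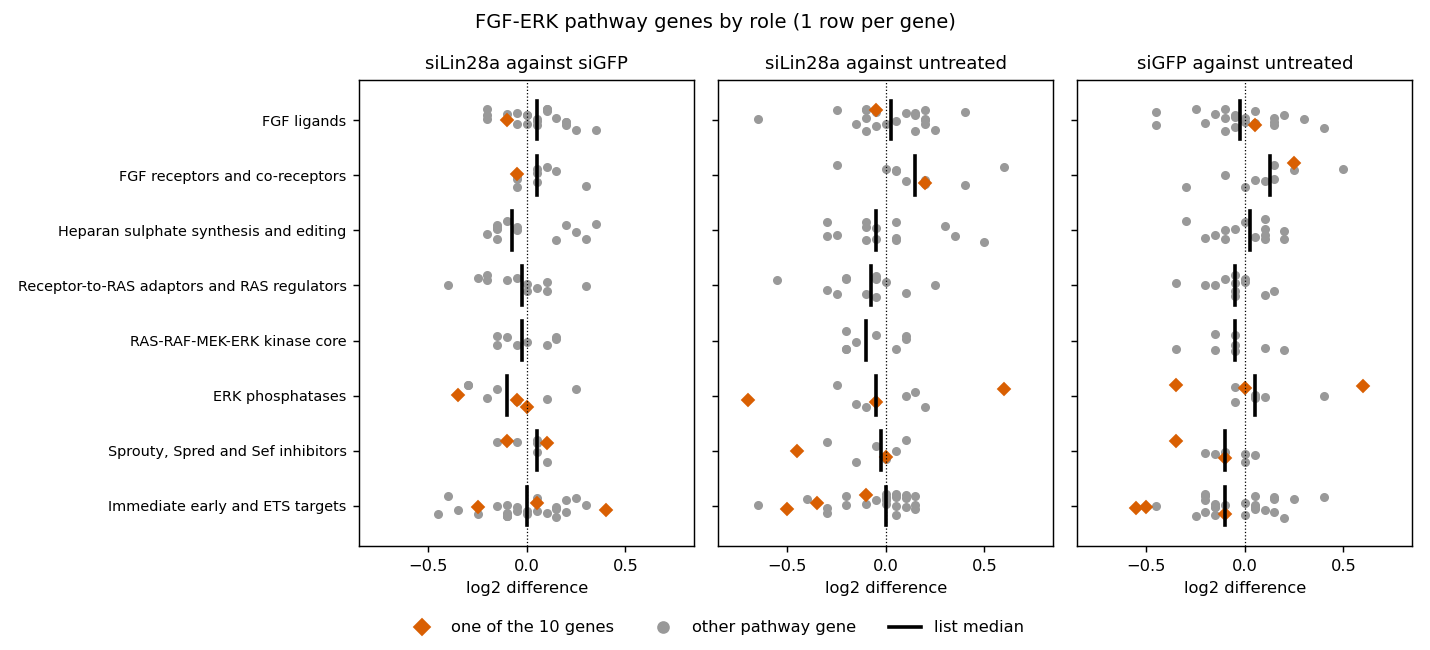
Log2 differences of the 111 measured pathway genes in 8 lists, 1 probe set for each gene, in the 3 comparisons. Orange diamonds are the 10 genes, grey circles the other genes, and black bars the list medians, and vertical scatter within a list carries no value. The list medians lie between −0.10 and 0.15, and the diamonds farthest from 0 are Dusp9, at −0.70, and Dusp4, at 0.60.

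Markers of cell identity were read beside these values. All 8 ES cell markers lay between 7.8 and 12.2 on every array, and so were well expressed in the labelled cell type. Their summed level on the linear scale was 12578 to 14079 in the siLin28a arrays, 15185 to 18116 in the siGFP arrays and 16177 to 17138 in untreated arrays. The sum of the 6 primed epiblast markers was 1891 to 2103.5 in the siLin28a arrays, 1022 to 1421 in the siGFP arrays and 1100.1 to 1132 in untreated arrays. ES cell and primed marker sums thus did not overlap between siLin28a and siGFP arrays. Single markers did not all follow: Pou5f1, Sox2 and Utf1 of the ES cell list and Otx2 of the primed list overlapped or touched. Most of the 10 FGF-ERK genes overlapped, as did most of all probe sets, of which 20.8% were apart. The part of cell state in the FGF-ERK values was not tested. Under 6 on all arrays were 7 of 8 primitive endoderm markers (the exception is Sparc), 5 of 8 trophoblast, 4 of 8 feeder fibroblast and 3 of 5 measured early neural markers. The fibroblast genes Lum, Postn and Dcn lay between 2.1 and 3.5, but Thy1 lay between 6.6 and 7.1 and Col1a1 between 5.9 and 6.2. Of the early neural markers, Sox1 lay between 6.9 and 7.3 and Tubb3 between 6.3 and 7.4.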

How the data were processed

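The authors deposited log2 expression values made with Affymetrix Expression Console and RMA, per the submitters' processing notes. By design RMA background-corrects, gives all arrays 1 distribution and combines the probes of a probe set, which can compress small differences. The deposited arrays did not share 1 distribution in full, with upper quartiles from 7 to 7.2. For its version, library files and build the entry is: not given in the sources used here. That the scale is log2 was read from RMA's usual output and the values. The platform's gene annotation named genes for 23410 of 35556 probe sets, 21789 with 1 symbol and 1621 with several. Gene positions, matched by Entrez number, and promoters come from RefSeq (GRCm38.p6).

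All 6 arrays entered 1 limma 3.58.1 fit in R 4.3.3 (3 groups, eBayes, two-sided), with Benjamini-Hochberg adjustment over the 23410 probe sets of a comparison and a threshold of 0.05. Residual degrees of freedom were 3 and the prior added 3.19. With 2 arrays in a group the smallest exact two-sided permutation p is 0.333, so no such test is reported. Figures used matplotlib 3.10.9.

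The 10 genes, pathway lists and tests were chosen with earlier results of these data known. Genes beyond the 10 are the 2 of each pathway list with the widest siLin28a to siGFP difference among those with a group mean of at least 6, and the 3 nearest probe sets to each of the 2 genes of widest range, among those with group means at least 0.5 apart and reaching 6. A list uses each gene's brightest probe set. The 16 alternatives covered normalization, dim probe sets, priors, samples, probe sets tested, the replicate block and leaving out each array. No 2 arrays shared more than 18.7% of values, so none was a duplicate.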

Additional observations from a re-analysis of the deposited data

How the results depend on the processing

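No probe set of the 10 genes passed the threshold under any of the 16 alternatives, and the lowest adjusted p among their values was 0.503 by limma. The number of probe sets past the threshold over all genes stayed at 0 except after cyclic loess, with 1 for siLin28a against siGFP and 5 for siLin28a against untreated, and with a robust prior, with 1 and 7. The 1 for siLin28a against siGFP was Lin28a under both settings. Least squares without a prior used the 23299 probe sets with a spread above 0. With 1 array left out, the lone array of a group was assumed to vary like the others.

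Of 528 values of the 10 genes under alternatives, 503 kept their sign or had none and 25 turned. With another round of quantile normalization and with cyclic loess, Dusp6 and Fgfr1 turned for siLin28a against siGFP (Dusp6 0.033 and 0.035, Fgfr1 0.0375 and 0.027), and Dusp6 and Fgf4 for siLin28a against untreated (Dusp6 0.042 and 0.044, Fgf4 0.042 and 0.046). The other turns came from leaving out 1 array, which leaves the compared groups with unequal replicate numbers. For siLin28a against siGFP the ranges without 1 array were −0.35 to 0.45 for Etv4, −0.15 to 0.35 for Etv5 probe set 10438626, −0.35 to 0.15 for Spry4, −0.25 to 0.05 for Fgf4, −0.75 to 0.05 for Dusp9, −0.15 to 0.05 for Dusp6 and −0.15 to 0.05 for Fgfr1. For siLin28a against untreated they were −0.55 to 0.05 for Etv5 probe set 10438626, −0.30 to 0.10 for Egr1, −0.15 to 0.05 for Fgf4 and −0.15 to 0.05 for Dusp6. For siGFP against untreated they were −0.10 to 0.20 for Fgf4 and −0.75 to 0.05 for Dusp9. Beyond the change of arrays or scaling itself, the cause was not tested. The median over the 10 genes lay between −0.175 and 0.05, between −0.225 and 0.025, and between −0.175 and 0.00 without 1 array in the 3 comparisons in that order.

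The labels give the groups the same replicate numbers without saying what they mark. Over 23410 probe sets, replicate 1 minus replicate 2 correlated between siGFP and siLin28a at r = 0.357, between untreated and siGFP at 0.154 and between untreated and siLin28a at −0.0352. The siRNA arrays of 1 number thus deviated together to some degree, but not every pair of groups did, so the numbers were not taken to pair the samples. With the replicate number as a block, 0 probe sets passed by limma in each comparison. At an unadjusted p under 0.05 there were 1350, 1933 and 1255, against 949, 1508 and 825 without it. Differences of the 10 genes were the same by construction, but their SE changed. For siLin28a against siGFP it fell from 0.32 to 0.21 for Etv4 and from 0.23 to 0.087 for Spry4. Of the 11 probe sets only that of Egr1 had a larger SE with the block, 0.22 instead of 0.19.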

Other observations

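A pair of pathway genes outside the 10 and outside the rule for named genes was singled out after its values were seen. Fgfr2, a second FGF receptor gene of early embryos, was at 5.9 and 5.9 in siLin28a arrays, at 5.9 and 5.7 in siGFP arrays, and at 5.2 and 5.4 in untreated arrays. Its log2 difference was 0.60 for siLin28a against untreated (SE 0.14, adjusted p 0.597 by limma) and 0.50 for siGFP against untreated (adjusted p 0.961), on a dim probe set. Nf1, which encodes a RAS GTPase-activating protein, was at 7.2 and 7.3 in siLin28a arrays, at 7.5 and 7.4 in siGFP arrays, and at 7.7 and 7.9 in untreated arrays. Its difference was −0.55 for siLin28a against untreated (SE 0.13, adjusted p 0.597) and −0.35 for siGFP against untreated (adjusted p 0.961). Neither passed the threshold, and all 4 siRNA arrays lay on one side of both untreated arrays in each gene, as in 7.69% of all probe sets. Of the 101 measured pathway genes outside the 10, 4 had all siRNA arrays above both untreated arrays, against 4.11% of all probe sets. In 8 of the 101 they lay below, against 3.58% of all.

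In 4 of the 101 measured pathway genes outside the 10, both siRNA replicate 1 arrays lay on one side of both siRNA replicate 2 arrays with means at least 0.5 apart, against 3.77% of all probe sets. They were Myc, Spred1, Shc1 and Fgf18. Myc, a growth-promoting transcription factor gene, was at 6.8 and 8.1 in siLin28a arrays, at 7.3 and 8.4 in siGFP arrays, and at 8.2 and 8.0 in untreated arrays. Spred1, an inhibitor of RAF activation, was at 7.3 and 8.1 in siLin28a arrays, at 7.5 and 8.2 in siGFP arrays, and at 8.1 and 7.9 in untreated arrays. Shc1, an adaptor gene, was at 7.8 and 8.6 in siLin28a arrays, at 7.9 and 8.5 in siGFP arrays, and at 8.0 and 8.2 in untreated arrays.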
